A study of Mus musculus with 6 samples.

Results

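This account follows 6 genes, most of them from a family of abundant neuronal proteins that sit under the plasma membrane. Proteins of this family are substrates or relatives of substrates of protein kinase C (PKC). The 6 genes were *Marcks*, *Marcksl1*, *Gap43*, *Basp1*, *Nrgn* and *Pcp4*, picked by gene symbol out of the 55357 genes counted. All 6 were among the 21876 genes that reached 6 reads in any library and were tested. The group was chosen by the measured contrast described here, with the values of *Marcksl1* known, so the differences between conditions are descriptions and carry no test. The samples were primary neurons of cortex and hippocampus from wild-type C57BL/6N mouse embryos, grown as mixed cultures and transduced at day 4 in vitro (DIV4) with a lentivirus of the pLVTHM vector. In 3 libraries the vector carried a scrambled hairpin (shCtrl), and in 3 it carried the sh2 hairpin against *Pla2g4e* (sh*Pla2g4e*), at the same amount of virus. All 6 were collected at DIV14, and poly(A) RNA was sequenced. A single hairpin stands for the knockdown, and nothing in the labels says that the libraries came from separate cultures, so the spread between replicates may be technical.

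PKC substrates of this family have a common layout. A lipid anchor or a stretch of basic residues holds the protein on the inner face of the membrane, where it covers the lipid PIP2 or binds calmodulin, and phosphorylation by PKC or binding of calcium-calmodulin releases the lipid or the calmodulin. MARCKS and its smaller relative MARCKSL1 also bind actin filaments. GAP43 and BASP1 are major proteins of the growth cone, the moving tip of an extending axon. Neurogranin, the product of *Nrgn*, holds calmodulin in dendrites and spines of mature forebrain neurons and is thus not a growth cone protein, and PCP4 belongs here through its calmodulin-binding IQ motif.

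The hairpin and the stretches of coding sequence that place the genes in the family are shown so that the levels can be read against them. Coding sequences were read from GENCODE vM21 on GRCm38. In the sh2 sequences the capitals mark the guide's seed (bases 2 to 8) and its match in the target.
sh2 target: ggaagatggtgGTGGCCAa
sh2 guide: tTGGCCACcaccatcttcc
The match to the seed, GTGGCCA, stood in no annotated 3′ UTR of the 6 genes and not in the 5′ UTR of their longest coding transcript. The coding sequence of *Pcp4* held 1 match and those of the other 5 none. Of 15681 genes with an annotated 3′ UTR, 14.6% held it in any of them, and of 15792 coding genes 25.3% held it in the coding sequence of the longest transcript. The longest run of bases that a member's transcript shared with the sh2 target was 10 in *Marcks*, 9 in *Marcksl1* and *Gap43*, 7 in *Basp1* and *Pcp4*, and 6 in *Nrgn*, against 19 in *Pla2g4e* itself.

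The first 10 codons show how 4 of the proteins are anchored. In *Marcks*, *Marcksl1* and *Basp1* the capitals mark the glycine codon after the start, whose residue carries myristate. In *Gap43* they mark a pair of cysteine codons, whose residues carry palmitate.
Marcks, exon 1 of 2, chr10:37138506-37138535, minus strand: atgGGTgcccagttctccaagaccgcagcg
Marcksl1, exon 1 of 2, chr4:129513830-129513859, plus strand: atgGGCagccagagctctaaggctccccgg
Basp1, exon 2 of 2, chr15:25364880-25364909, minus strand: atgGGAggcaagctgagcaagaagaagaag
Gap43, exon 1 of 3, chr16:42340473-42340502, minus strand: atgctgTGCTGTatgagaagaaccaaacag

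The effector domain of the MARCKS proteins binds PIP2, calmodulin and actin and holds the serines that PKC phosphorylates. It was located as the 25 codons richest in lysine, arginine and phenylalanine, and capitals mark its serine codons.
Marcks, codons 145 to 169, exon 2 of 2, chr10:37136531-37136605, minus strand: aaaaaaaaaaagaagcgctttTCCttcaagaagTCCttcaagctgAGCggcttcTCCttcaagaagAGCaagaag
Marcksl1, codons 86 to 110, exon 2 of 2, chr4:129514885-129514959, plus strand: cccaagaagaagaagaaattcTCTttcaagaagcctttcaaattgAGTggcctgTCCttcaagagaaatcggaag
The stretches shared 52 of 75 bases (69.3%), and 18 of 25 codons gave the same residue. *Marcks* had 5 serine codons in it and *Marcksl1* 3.

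The IQ motif is the calmodulin-binding stretch of the other branch, shown for *Nrgn* and *Pcp4*. Capitals mark the isoleucine and glutamine codons that name it and the serine codon that follows, which in *Nrgn* is the PKC site.
Nrgn, codons 29 to 44, exon 2 of 4, chr9:37546058-37546105, minus strand: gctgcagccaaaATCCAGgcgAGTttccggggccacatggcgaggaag
Pcp4, codons 42 to 57, exon 3 of 3, chr16:96525452-96525499, plus strand: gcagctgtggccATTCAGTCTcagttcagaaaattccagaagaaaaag
These stretches shared 22 of 48 bases (45.8%), and 7 of 16 codons gave the same residue. The coding sequences were 309 codons long in *Marcks*, 200 in *Marcksl1*, 227 in *Gap43*, 226 in *Basp1*, 78 in *Nrgn* and 62 in *Pcp4*. Alanine took 28.8% of the codons of *Marcks* and 29.2% of those of *Basp1*, against 20.3% in *Gap43*, 15.5% in *Marcksl1*, 14.1% in *Nrgn* and 11.3% in *Pcp4*. Glutamate took 15% to 17.7% in the 4 growth cone genes and 2.56% in *Nrgn*.

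Each library held 17054717 to 23570180 counted reads. Levels are given as CPM, the reads of a gene divided by the library's total after scaling with TMM factors, which ranged from 0.951 to 1.04. *Pla2g4e*, the targeted gene (chromosome 2, 119996893 to 120075816 on GRCm39, minus strand), stood at 38, 35.1 and 35.4 CPM in shCtrl replicates 1, 2 and 3 and at 21.8, 14.1 and 18.7 CPM in sh*Pla2g4e*. The knockdown libraries thus kept 50.5% of the control level, and the groups did not overlap. Of all genes tested, 1419 (6.49%) passed an adjusted p of 0.01 (edgeR, quasi-likelihood test, Benjamini-Hochberg), 876 (4.00%) of them lower in sh*Pla2g4e* and 543 higher. The lower genes were 61.7% of the calls with TMM scaling and 43.3% (609 of 1405) with library size alone, under which the median over all genes moved from 0.029 to 0.10 on the log2 scale.

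*Marcksl1* was the member that differed most between the conditions. The gene (ENSMUSG00000047945.7) lies on chromosome 4, 129407374 to 129409778 on GRCm39, plus strand, with 1605 bases of exons. Its level was 560.7, 574.9 and 501.9 CPM in shCtrl, replicates 1 to 3, and 242.6, 226.7 and 264.0 CPM in sh*Pla2g4e*. The groups stood far apart, and the highest knockdown library was well under the lowest control. The means were 545.9 ± 38.7 CPM (SD, n = 3) and 244.4 ± 18.7 CPM (SD, n = 3), so that sh*Pla2g4e* held 44.8% of the control level. The log2 fold change was −1.16 with an SE of 0.086 and a 95% interval from −1.34 to −0.98. Over the 10908 genes whose log2 CPM averaged 3 or more, 30 had a lower log2 fold change. Compared number by number, the log2 differences were −1.21, −1.34 and −0.93. Of 50-base stretches of its transcript, 1.61% occur in other genes, among them the processed copy Marcksl1-ps4, so nearly all of the gene is read without ambiguity.

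*Marcks*, the larger gene of the pair (ENSMUSG00000069662.6, chromosome 10, 37009371 to 37014916, minus strand, 4048 bases of exons), was lower by less. It stood at 293.2, 297.8 and 248.2 CPM in shCtrl and at 210.4, 219.3 and 205.7 CPM in sh*Pla2g4e*. The groups did not overlap, and the control libraries were more spread than the knockdown ones. The means were 279.7 ± 27.4 CPM (SD, n = 3) and 211.8 ± 6.89 CPM (SD, n = 3), a level 24.3% lower. The log2 fold change was −0.40 (SE 0.085, 95% interval −0.58 to −0.22), and 935 of the 10908 genes had a lower one. The call of *Marcks* at an adjusted p of 0.01 depended on single libraries and was lost in 5 of the 6 fits that left out 1. Its log2 fold change was −0.37 without shCtrl replicate 1 and −0.35 without shCtrl replicate 2. It was −0.39, −0.43 and −0.38 without sh*Pla2g4e* replicates 1, 2 and 3, and −0.48 without shCtrl replicate 3, where the call was kept.

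**Figure D1:**
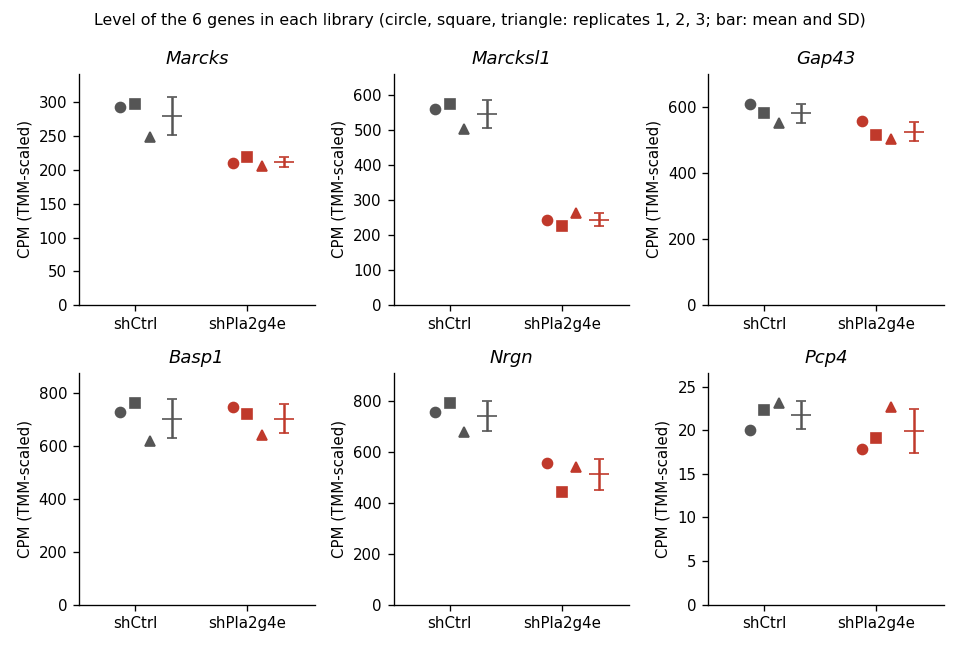
Level of each of the 6 genes in CPM (TMM-scaled, linear axis from 0), in the 3 shCtrl and 3 sh*Pla2g4e* libraries; circle, square and triangle are replicates 1, 2 and 3, and the bar is the mean with its SD. The groups of *Marcksl1*, *Marcks* and *Nrgn* do not overlap, while those of *Gap43*, *Basp1* and *Pcp4* do.

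*Gap43*, the growth-associated protein most used as a mark of growing axons (ENSMUSG00000047261.10, chromosome 16, 42068805 to 42161014, minus strand, 1523 bases of exons), stood much closer between the conditions than *Marcksl1* did. It stood at 610.3, 582.2 and 552.0 CPM in shCtrl and at 558.0, 516.5 and 502.5 CPM in sh*Pla2g4e*. The groups overlapped, since the highest knockdown library was above the lowest control. The means were 581.5 ± 29.2 CPM (SD, n = 3) and 525.7 ± 28.9 CPM (SD, n = 3), 9.6% lower in the knockdown. The log2 fold change was −0.15 (SE 0.080), its 95% interval ran from −0.31 to 0.023, and 3342 of the 10908 genes had a lower one. The libraries of the same number differed by −0.13, −0.17 and −0.14 on the log2 scale, a narrower range than in any other member. With the replicate number as a block the log2 fold change was again −0.15, with a smaller SE of 0.060, and the gene did not pass the threshold.

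*Basp1*, the brain acid soluble protein that resembles GAP43 and MARCKS in charge and anchoring (ENSMUSG00000045763.9, chromosome 15, 25363363 to 25413850, minus strand, 2009 bases of exons), showed no difference that could be given a direction. It stood at 728.2, 762.7 and 620.0 CPM in shCtrl and at 748.3, 721.6 and 643.5 CPM in sh*Pla2g4e*. The libraries of the conditions were interleaved. The means were 703.6 ± 74.4 CPM (SD, n = 3) and 704.5 ± 54.4 CPM (SD, n = 3). The log2 fold change was 0.002 (SE 0.092), with a 95% interval from −0.19 to 0.20, which held differences of either sign. Its sign turned with the scaling, being −0.005 with the size factors of DESeq2.

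*Nrgn* (ENSMUSG00000053310.12, chromosome 9, 37455788 to 37464200, minus strand, 1453 bases of exons) had the second largest difference. It stood at 754.8, 789.9 and 676.7 CPM in shCtrl and at 553.6, 441.4 and 540.0 CPM in sh*Pla2g4e*. The groups did not overlap, and sh*Pla2g4e* replicate 2 was lower than the other knockdown libraries. The means were 740.5 ± 57.9 CPM (SD, n = 3) and 511.7 ± 61.2 CPM (SD, n = 3), a level 30.9% lower in the knockdown. The log2 fold change was −0.53 (SE 0.096, 95% interval −0.74 to −0.33), and 490 of the 10908 genes had a lower one. By number the differences were −0.45, −0.84 and −0.33. Without shCtrl replicate 2 the log2 fold change was −0.48 and the gene no longer passed an adjusted p of 0.01.

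*Pcp4* (ENSMUSG00000090223.3, chromosome 16, 96268806 to 96326993, plus strand, 1026 bases of exons), which tunes calcium binding by calmodulin, was the weakly expressed member. It held 398 to 521 reads a library, against up to 17889 for *Basp1*. Its level was 20, 22.3 and 23.1 CPM in shCtrl and 17.9, 19.1 and 22.7 CPM in sh*Pla2g4e*, and the groups overlapped. The means were 21.8 ± 1.63 CPM (SD, n = 3) and 19.9 ± 2.5 CPM (SD, n = 3), with a log2 fold change of −0.13 (SE 0.119, 95% interval −0.39 to 0.12). Its exons overlap those of *Igsf5* on the same strand over 23.7% of their bases, so its counts are uncertain.

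Of the 6 members, 3 were past the threshold of the fit across all genes and lower in sh*Pla2g4e*, namely *Marcksl1*, *Nrgn* and *Marcks*, where 4.00% of all genes were. The same 3 had libraries that did not overlap between conditions, as had 30.0% of all genes. They were also the 3 past the threshold with the replicate number as a block, where 9.02% of all genes were lower and past it. Since the group was selected on this contrast, nothing is read from these counts. Within the group the closest profiles over the 6 libraries were those of *Gap43* and *Basp1*, whose mean-centred log2 CPM differed by a root mean square of 0.105. The 2 MARCKS genes differed by 0.392, more than *Marcks* did from *Nrgn* (0.148) or from *Gap43* (0.146). The farthest were *Marcksl1* and *Basp1*, at 0.595.

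**Figure D2:**
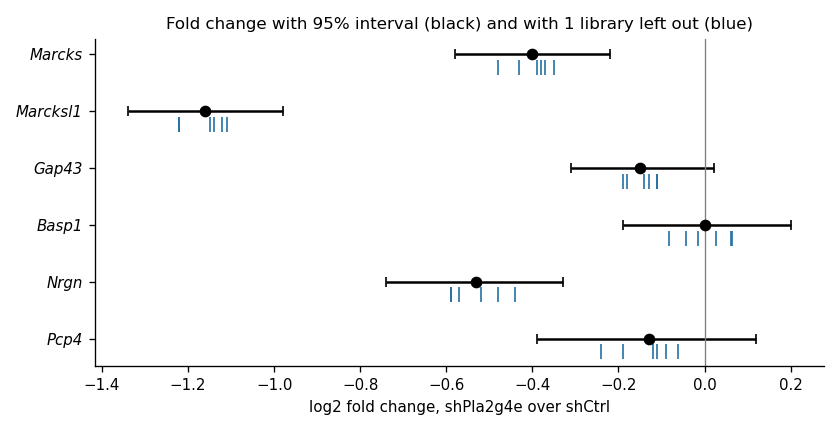
Log2 fold change of each gene, sh*Pla2g4e* over shCtrl (horizontal axis), as a black point with its 95% interval, and blue ticks for the values with 1 library left out. *Marcksl1* stays between −1.22 and −1.11, *Gap43* between −0.19 and −0.11, and *Basp1* falls on both sides of 0.

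Levels of different genes were compared per kilobase of exons. In shCtrl *Nrgn* was highest at 509.6 ± 39.9 CPM per kb (SD, n = 3), above *Gap43* at 381.8 ± 19.1, *Basp1* at 350.2 ± 37 and *Marcksl1* at 340.1 ± 24.1. *Gap43* and *Basp1* had overlapping ranges, as had *Basp1* and *Marcksl1*, so those neighbours did not differ beyond their spread. *Marcks* at 69.1 ± 6.76 and *Pcp4* at 21.3 ± 1.59 CPM per kb followed, each clear of the next. In sh*Pla2g4e* *Nrgn* was no longer clear of the next genes. It stood at 352.1 ± 42.1, *Basp1* at 350.7 ± 27.1 and *Gap43* at 345.2 ± 19 CPM per kb (SD, n = 3), with overlapping ranges. *Marcksl1* at 152.3 ± 11.7 no longer overlapped *Basp1*, and *Marcks* was at 52.3 ± 1.7 and *Pcp4* at 19.4 ± 2.44. By CPM per kb over the 6 libraries, 97.3% of genes tested had a lower level than *Marcks*, 99.7% to 99.9% a lower one than *Marcksl1*, *Gap43*, *Basp1* and *Nrgn*, and 88.6% a lower one than *Pcp4*.

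**Figure D3:**
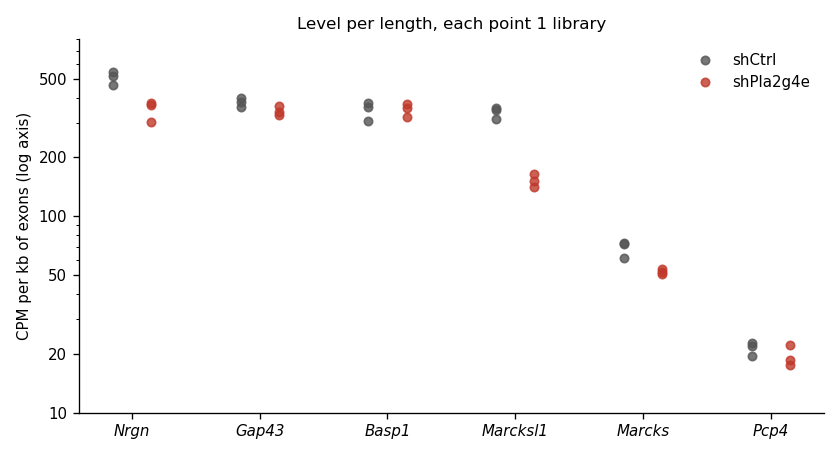
Level in CPM per kilobase of exons (log axis) of the 6 genes, 1 point a library, shCtrl in grey and sh*Pla2g4e* in red. *Nrgn* stands above *Gap43* in shCtrl and among *Basp1* and *Gap43* in sh*Pla2g4e*, while *Marcksl1* leaves the upper group.

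Ratios within a library do not depend on the scaling of its total, whereas the sums given with them do. *Marcksl1* made up 82.8%, 83% and 83.6% of the MARCKS pair per kilobase in the shCtrl libraries and 74.4%, 72.3% and 76.4% in sh*Pla2g4e*. The sum of the pair was 374.0 to 431.8 CPM per kb in shCtrl and 195.4 to 215.3 in sh*Pla2g4e*, so *Marcksl1* remained the main MARCKS transcript in every library at a much lower joint level. *Nrgn* stood at 1.3, 1.42 and 1.28 times *Gap43* in shCtrl and at 1.04, 0.896 and 1.13 times in sh*Pla2g4e*. *Gap43* stood at 1.11, 1.01 and 1.17 times *Basp1* in shCtrl and at 0.984, 0.944 and 1.03 times in sh*Pla2g4e*, so that the groups overlapped while each number was lower in the knockdown. All 6 members together took 1533.4 to 1759.0 CPM per kb in shCtrl and 1216.1 to 1340.4 in sh*Pla2g4e*.

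Among the 10907 other genes of that minimum level, the 5 whose profile over the 6 libraries was nearest to that of *Marcksl1* were *Tubb5*, *Doc2b*, *Flot2*, *Prkar1a* and *Grm2*. *Tubb5*, a beta-tubulin, was at a root mean square of 0.057, with 519.3 ± 43.5 CPM in shCtrl and 241.6 ± 31.4 CPM in sh*Pla2g4e* (SD, n = 3). *Doc2b*, a calcium sensor of vesicle release, was at 0.070, *Flot2*, a membrane raft protein, at 0.074, *Prkar1a*, a regulatory subunit of protein kinase A, at 0.082, and *Grm2*, a glutamate receptor, at 0.083. Near *Gap43* were *Evl* at 0.017, *Ncoa1* and *Prkcz* at 0.021 and *Dstyk* at 0.024. *Prkcz* shares 18.4% of its 50-base stretches with another gene, so its level is uncertain. *Evl*, an actin regulator of the Ena/VASP family, had 184.9 ± 9.3 CPM in shCtrl and 167.3 ± 7.96 CPM in sh*Pla2g4e* (SD, n = 3), and 9.46% of its exon sequence is shared with a gene of the opposite strand. Of the neighbours, *Evl* and *Prkcz* also stand in the lists described next.

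The genes around the substrates were read from 8 lists covering kinases, calmodulin, PIP2, lipid anchors, actin, other substrates, RNA-binding proteins and regeneration. Counting each gene once, 99 were tested. Of these, 20 (20.2%) were past the threshold and lower in sh*Pla2g4e* and 2 higher. The median of the 99 was −0.15 on the log2 scale. Over all genes 4.00% were past it and lower with a median of 0.029, and over the 10908 genes whose log2 CPM averaged 3 or more 7.61% were, with a median of −0.024. Of the 22 genes, 13 stayed past the threshold in all 6 fits that left out 1 library, and without shCtrl replicate 2 the count over the lists was 13. With the replicate number as a block it was 45, in a fit that called 3395 of the 21876 genes tested. The lists were written with results of these data known, so the counts describe these genes only. Adjusted p-values are from the edgeR fit over all genes.

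**Figure D4:**
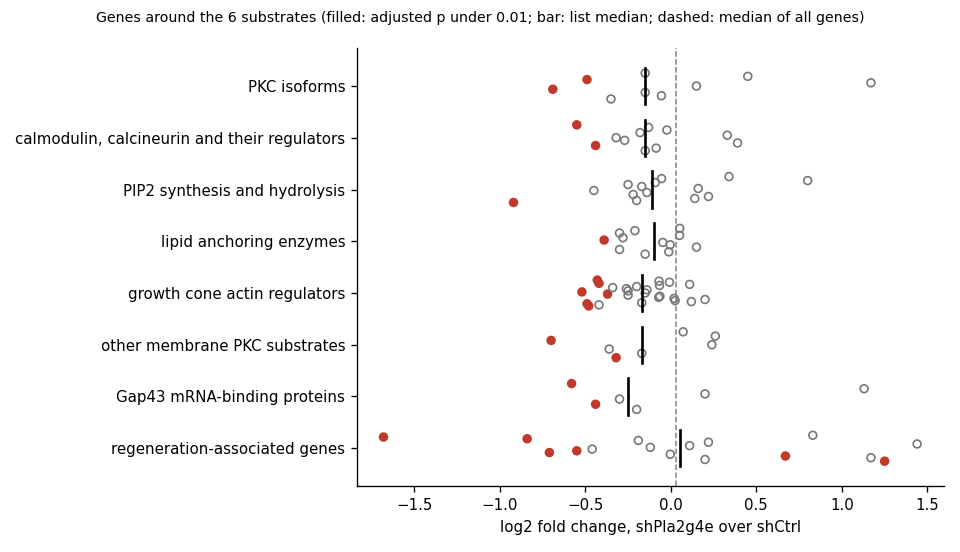
Log2 fold change, sh*Pla2g4e* over shCtrl (horizontal axis), of every tested gene of the 8 lists (rows); filled points are past an adjusted p of 0.01, black bars are list medians and the dashed line is the median of all genes. Filled points lie below 0 in 7 lists, and among regeneration-associated genes 4 lie below and 2 above.

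Of 9 PKC isoforms, 2 fell and none rose past the threshold, while 3 had a log2 fold change above 0. The median log2 fold change was −0.15, and the block called 3 lower and 1 higher. *Prkce*, PKC epsilon, fell from 316.0 ± 36.3 to 195.5 ± 14.8 CPM (SD, n = 3), a log2 fold change of −0.69 (adjusted p = 1.43e-04). *Prkci*, the atypical isoform iota, fell from 79 ± 2.99 to 56.3 ± 2.82 CPM (SD, n = 3), −0.49 on the log2 scale (adjusted p = 7.32e-04). *Prkca*, a conventional isoform named here after its values were seen, was at −0.35 (adjusted p = 0.0109), and *Prkcb* at −0.055 (adjusted p = 0.778).

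Of 11 genes of calmodulin, calcineurin and their regulators, 2 fell and none rose past the threshold, while 2 had a log2 fold change above 0. The median was −0.15, and the block called 4 lower and 2 higher. *Calm3*, a calmodulin gene, fell from 1442.4 ± 104.6 to 1059.9 ± 42.5 CPM (SD, n = 3), a log2 fold change of −0.44 (adjusted p = 0.0018, and 0.0242 without shCtrl replicate 2). *Rcan3*, a regulator of calcineurin, fell from 52.9 ± 1.69 to 36 ± 3.34 CPM (SD, n = 3), −0.55 on the log2 scale (adjusted p = 7.31e-04).

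Of 14 genes of PIP2 synthesis and hydrolysis 1 fell, a share near the 7.61% above, with a list median of −0.11, and the block called 2 lower and 2 higher. The count was 2 without shCtrl replicate 1, shCtrl replicate 3 or sh*Pla2g4e* replicate 1, and 4 with no filter. The gene that fell was *Pip4k2a*, a kinase that makes PIP2 from phosphatidylinositol 5-phosphate, at 51.8 ± 4.39 CPM in shCtrl and 27.3 ± 2.09 CPM in sh*Pla2g4e* (SD, n = 3), a log2 fold change of −0.92 (adjusted p = 1.38e-05). Of 12 lipid anchoring enzymes 1 fell, also a share near 7.61%, with a median of −0.097, and the block called 3 lower. It was *Nmt2*, a myristoyltransferase. It fell from 167.2 ± 2.89 to 127.6 ± 7.69 CPM (SD, n = 3), −0.39 on the log2 scale (adjusted p = 0.00317), and did not pass without shCtrl replicate 2 (0.0274) or sh*Pla2g4e* replicate 2 (0.0183).

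Of 25 growth cone actin genes, 20 had a negative log2 fold change and 6 fell, none rose, and the median was −0.17. With the block 12 fell. *Dstn*, which severs actin filaments, fell from 294.3 ± 5.39 to 205.6 ± 5.58 CPM (SD, n = 3), a log2 fold change of −0.52 (adjusted p = 2.30e-04). *Actr2*, a core subunit of the Arp2/3 complex that branches filaments, was at −0.49 (adjusted p = 0.00104), and *Wasf1*, which activates that complex, at −0.43 (adjusted p = 0.00196). *Cttn*, which steadies the branches, was at −0.37 (adjusted p = 0.00344). *Actb*, beta-actin, fell from 1083.7 ± 87.2 to 779.2 ± 27.7 CPM (SD, n = 3), −0.48 on the log2 scale (adjusted p = 0.00109), and 14.2% of its 50-base stretches occur in other genes, so its level is uncertain. Adjusted p-values without shCtrl replicate 2 reached 0.0209 for *Actb*, 0.0175 for *Wasf1*, 0.027 for *Cttn* and 0.0369 for *Tmod2*, the sixth gene. *Actr2* and *Dstn* passed the threshold in all 6 fits without 1 library. *Actb* also reached 0.0104 without sh*Pla2g4e* replicate 1. *Wasf1* reached 0.0102 when sh*Pla2g4e* replicate 1 was left out and 0.0108 when shCtrl replicate 1 was. *Cttn* and *Tmod2* missed it in 4 of the 6 fits each.

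Of 7 other membrane-bound PKC substrates, 2 fell, and the block called 3 lower and 2 higher. *Akap5*, which anchors PKC, protein kinase A and calcineurin at the postsynaptic membrane, fell from 73.1 ± 3.62 to 45 ± 7.65 CPM (SD, n = 3), a log2 fold change of −0.70 (adjusted p = 4.41e-04). *Add1*, an adducin that caps actin, was at −0.32 (adjusted p = 0.00935), and missed the threshold in 5 of the 6 fits without 1 library, with up to 0.0613 without shCtrl replicate 2. Of 6 proteins that bind *Gap43* mRNA, 2 fell, and the block called 3 lower. *Khsrp*, which promotes decay of AU-rich mRNAs, fell from 160.5 ± 16.9 to 107.2 ± 2.81 CPM (SD, n = 3), −0.58 on the log2 scale (adjusted p = 3.25e-04). *Elavl2*, an RNA stabiliser, was at −0.44 (adjusted p = 0.00992) and missed the threshold in 5 of the 6 fits without 1 library, with up to 0.0399 without sh*Pla2g4e* replicate 2. *Elavl4* (HuD), the stabiliser best known for *Gap43*, was at 0.20 (adjusted p = 0.175).

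Of 16 regeneration-associated genes, 4 fell and 2 rose, with a median of 0.055, and the block called 5 lower and 3 higher. *Tubb3*, neuronal beta-tubulin, stood at 294.6, 345.0 and 271.5 CPM in shCtrl and at 95.4, 90.9 and 98.4 CPM in sh*Pla2g4e*, a log2 fold change of −1.68 (adjusted p = 3.68e-08). *Tuba1a*, an alpha-tubulin whose 50-base stretches are shared with other genes in 75.5%, was at −0.84, and *Klf7*, a transcription factor with 40.8% shared, at −0.71, so both are uncertain. *L1cam*, an adhesion molecule of axons, fell from 396.1 ± 32.5 to 270.6 ± 12.4 CPM (SD, n = 3), −0.55 on the log2 scale (adjusted p = 3.64e-04). *Jun*, a transcription factor of the axon injury response, rose from 68.8 ± 2.12 to 109.1 ± 23.5 CPM (SD, n = 3), 0.67 on the log2 scale (adjusted p = 0.00133). *Atf3*, its partner in that response, named after its values were seen, was at 8.05, 7.55 and 6.48 CPM in shCtrl and at 15.2, 26.8 and 10.2 CPM in sh*Pla2g4e*, a log2 fold change of 1.25 (adjusted p = 0.00361). *Atf3* missed the threshold in 4 of the 6 fits without 1 library, with up to 0.021 without shCtrl replicate 3. Its log2 fold change ran from 0.80 to 1.51 over those 6 fits.

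Marker genes of the cell types that such cultures hold were read as well, and in bulk RNA fewer cells of a type and less RNA per cell cannot be told apart. Over all genes 4.00% were past the threshold and lower, 7.61% of those whose log2 CPM averaged 3 or more, and 9.02% of all with the block, and nothing is read from 1 call in a list of 6 or 8. The neuronal label was borne out by 8 pan-neuronal markers with a summed 4058.4 to 4539.1 CPM in shCtrl and 3602.8 to 3940.8 in sh*Pla2g4e*, of which 2 fell and 2 rose, and 1 was called without shCtrl replicate 2. Young neuron markers took 1337.2 to 1503.7 CPM in shCtrl and 1090.9 to 1427.4 in sh*Pla2g4e*. Of those 8 markers 3 fell (*Tubb3*, *Stmn1* at −0.77 and *Dcx* at −0.51 on the log2 scale) and 1 rose (*Nnat*, 1.01). *Stmn1* shares 36.5% of its 50-base stretches with other genes, so its level is uncertain. Mature forebrain glutamatergic markers, among which *Nrgn* would also be placed, took 3090.8 to 3368.8 CPM in shCtrl and 2363.0 to 2928.1 in sh*Pla2g4e*. Of those 9 markers 2 fell, *Slc17a7* at −1.31 and *Neurod6* at −0.47 on the log2 scale, and none rose, while 4 of the 9 had a log2 fold change above 0. The block called 3 lower and 1 higher, and 1 was called without shCtrl replicate 2 or sh*Pla2g4e* replicate 2. Without *Slc17a7* the sums overlapped, at 2346.7 to 2605.1 CPM in shCtrl and 2073.1 to 2631.0 in sh*Pla2g4e*. Deep layer and CA2 markers, the neurons where *Pcp4* is high, took 130.0 to 147.0 CPM and 138.7 to 153.7 CPM, and 1 of 6 fell, a call lost without shCtrl replicate 3 or sh*Pla2g4e* replicate 1. GABAergic markers took 829.0 to 903.2 and 794.9 to 881.9 CPM, and of 9 markers 2 fell and 2 rose.

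Astrocytes also express *Marcks*, and their 8 markers summed to 2826.0 to 3629.5 CPM in shCtrl and 1899.2 to 3081.7 in sh*Pla2g4e*, with a median log2 fold change of −0.39. Of these 3 fell, *Aqp4* at −1.19, *Gja1* at −0.66 and *Slc1a2* at −0.50 on the log2 scale. None rose past the threshold, while 2 of the 8 had a log2 fold change above 0. The block called 6 lower and 1 higher, and DESeq2 called 2 lower. The count was 1 without sh*Pla2g4e* replicate 1 or 2 and 6 without sh*Pla2g4e* replicate 3. By number, the astrocyte sum was 2826.0, 3188.4 and 3629.5 CPM in shCtrl and 2073.7, 1899.2 and 3081.7 CPM in sh*Pla2g4e*, lower in each pair. The pan-neuronal, young neuron, mature glutamatergic and GABAergic sums and the levels of all members but *Basp1* were lower in each pair as well. The deep layer and CA2 sum was higher in each pair. The oligodendrocyte lineage sum, the progenitor sum and the glutamatergic sum without *Slc17a7* went both ways. Microglial markers were near 0, with 5.49 to 11.3 CPM over the whole list in shCtrl and 3.42 to 6.63 in sh*Pla2g4e*. *Tmem119* had too few reads to be tested, and 0 of the other 7 passed the threshold in edgeR, DESeq2 or limma, with 3 at an unadjusted p under 0.05. Oligodendrocyte lineage markers took 516.4 to 585.4 and 536.3 to 640.3 CPM, and 0 of 8 passed in edgeR without the block, DESeq2 or limma, with 1 at an unadjusted p under 0.05. With the block 1 was lower and past the threshold, 1 passed without sh*Pla2g4e* replicate 3, and 2 passed with no filter. Progenitor and dividing cell markers took 371.8 to 508.3 and 331.0 to 521.5 CPM, and 1 of 8 was past the threshold and lower. None was without shCtrl replicate 2 or 3, without sh*Pla2g4e* replicate 1 or 2, with library size alone or with the stricter filter. Past the threshold were 2 with the block, DESeq2 or no filter, and also without shCtrl replicate 1 or sh*Pla2g4e* replicate 3. No marker of these lists was at 0 in every library. The part of any cell type in the values of the 6 members was not tested.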

How the data were processed

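The authors sequenced poly(A) RNA with a stranded kit (FastQC 0.11.8, STAR 2.7.0d) and deposited raw counts of reads per gene, 1 file a library, from featureCounts 1.6.0. Per the file headers genes are those of GENCODE vM28 on GRCm39, whereas the methods name mm10 and M18. The header holds no strand or read-pair option, and multi-mapping reads were left out. Symbols and sequences came from GENCODE vM21 (GRCm38) through gene identifiers, which matched for 52081 of 55357 genes. Unmatched genes took 0.286% to 0.387% of reads and stayed in the fits.

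Counts were fitted with edgeR 4.0.16 (R 4.3.3; TMM, glmQLFit, glmQLFTest) over genes that reached 6 reads in any library, group as the only term, Benjamini-Hochberg adjustment and a threshold of 0.01. The fit was tested on simulated data. Alternatives included limma 3.58.1 after voom, DESeq2 1.42.0, other scalings and filters, a replicate block and leaving out each library. Over 10908 genes, same-numbered libraries deviated from their group means together (r = 0.392, 0.189 and 0.461, against −0.393 to 0.108 for other pairs). Centring each group on its own mean ties these correlations to each other. The labels' numbers may thus pair libraries, but this check cannot settle it. No library repeated another, with a chi-square per gene of at least 6.03. The members and lists were chosen with earlier results of these data known. Named genes are the 6 members, *Pla2g4e*, up to 5 genes past the threshold with the smallest p in each list, up to 3 markers a cell type, and the 5 nearest profiles to *Marcksl1* and to *Gap43*. A few items that this rule or the sequence search gave are not reported here. *Prkca*, *Prkcb*, *Tmod2*, *Elavl4* and *Atf3* were named outside this rule after their values were seen. Intervals are 95% intervals of the fit without the block.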

Additional observations from a re-analysis of the deposited data

How the results depend on the processing

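The members were selected on this contrast, so these ranges describe how their values move with the settings and support nothing. *Marcksl1* was lower by 1.08 to 1.22 on the log2 scale in the 15 alternatives and past the threshold in each. *Gap43* (−0.19 to −0.071) and *Pcp4* (−0.24 to −0.061) kept their sign and were past it in none. *Marcks* ranged from −0.48 to −0.32 and was past it in 10, from −0.48 to −0.35 with 1 library left out. *Nrgn* ranged from −0.59 to −0.44, the same range as with 1 library left out, and was past it in 14. *Basp1* changed sign, at −0.005 with DESeq2 and with its size factors in edgeR, and from −0.082 to 0.063 with 1 library left out. The count of genes past the threshold was 2349 with no filter, 3395 with the replicate block and 2813 at an adjusted p of 0.05. With 1 library left out it ran from 695, without shCtrl replicate 2, to 1613, without sh*Pla2g4e* replicate 3. Over the 8 lists the count of 22 became 34 with no filter, 45 with the block, 40 at an adjusted p of 0.05 and 13 to 28 with 1 library left out. The block changed the call of no member. Ordered by CPM instead of CPM per kilobase, 4 of the 6 members kept their place in shCtrl and 3 in sh*Pla2g4e*. DESeq2 gave no adjusted p for 5514 genes. With 3 libraries a group, differences as small as those of *Gap43* and *Pcp4* lie within the intervals of the fit, and the causes of these changes were not tested.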
